A study of Caenorhabditis elegans with 12 samples.

Results

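The 10 genes described here are *pezo-1*, the only Piezo gene of *C. elegans*, and 9 genes of TRP (transient receptor potential) cation channels: *osm-9*, *ocr-1*, *ocr-2*, *trp-1*, *trp-4*, *trpa-1*, *pkd-2*, *lov-1* and *cup-5*. They were taken by gene symbol from the 46766 genes of the deposited comparison table, and all 10 were among the 22542 genes with normalized counts. No cut on their values was used, but the genes were chosen with earlier results of these data known. RNA was sequenced from BAG neurons, a pair of ciliated head neurons that sense CO2, after dissociation of day 1 adult hermaphrodites grown at 20°C and sorting of about 4000 GFP-positive events per replicate. The mutants, called *arcp-1* mutants below, had the genotype *arcp-1(db1082); npr-1(ad609)*. The *db1082* allele puts a premature stop codon into the gene of the dendritic ankyrin repeat protein ARCP-1. The controls had *npr-1(ad609)* alone, so both genotypes carried the mutation in the neuropeptide receptor gene *npr-1*, and both carried the transgene *ynIs64[flp-17p::gfp]*, whose *flp-17* promoter labels BAG. There were 6 libraries of each genotype, from biological replicates, and the comparison asked how loss of ARCP-1 alters gene expression in these neurons.

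Piezo proteins form large trimeric cation channels that open when the membrane is stretched. TRP channels are a broad family of cation channels with tetrameric pores. In worm sensory cilia, TRPV proteins serve olfaction, osmotic avoidance and nose touch, the TRPN protein TRP-4 serves texture sensing in dopaminergic neurons, and polycystins serve mating behaviour in male neurons, whereas the mucolipin CUP-5 resides in lysosomes. BAG neurons detect CO2 through a receptor guanylyl cyclase and cGMP-gated channels.

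The recovered reads per library ranged from 374550 to 8683395 in *arcp-1* mutants and 540884 to 7594719 in controls, and 4 libraries held fewer than 1000000 reads (*arcp-1* mutant replicates 3 and 4, control replicates 1 and 5). The normalized count is the read count divided by a size factor of the library, and a single read was worth 0.294 to 6.40 normalized counts. Transcripts of *arcp-1* itself had 704 to 4277 normalized counts (median 2500) in the mutants and 3288 to 12360 (median 8177) in controls, and 5 of 6 mutant libraries lay below every control. The fold change of *arcp-1* was −1.76 on the log2 scale (SE 0.40, adjusted p = 0.0308, limma), and it was no longer past the threshold in 11 of 24 other settings. The BAG markers *gcy-9*, *gcy-31*, *gcy-33*, *flp-17* and *ets-5* had a mean log2 level of 10.26 ± 0.91 in *arcp-1* mutants and 10.26 ± 0.71 in controls (SD, n = 6 each, exact permutation p = 0.998). Replicate 1 had the lowest BAG marker level of both genotypes. Markers of other tissues were present too: 6 body wall muscle genes summed to 2769 to 10428 TPM (transcript units that sum to 1000000 per library) in *arcp-1* mutants and 2256 to 10593 TPM in controls. Most of this sum was *unc-54* alone, at 2313 to 10143 TPM in *arcp-1* mutants and 1858 to 10196 TPM in controls. Each of the other muscle genes had at most 161.2 TPM in *arcp-1* mutants and 162.8 TPM in controls. No gene on any of the 15 marker lists passed the test. In such bulk libraries, fewer cells that express a gene and less of its RNA per cell cannot be told apart.

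Of the 10 genes, only *pezo-1* differed between the genotypes past the threshold, and it was higher in *arcp-1* mutants. Expression of *cup-5* was lower in every *arcp-1* mutant library than in any control, but did not pass the test. No genotype difference was detected for *trp-4* and *trpa-1*, which had reads in every library, and the remaining 6 genes had few reads in most libraries. The test was limma on log2(normalized count + 1) over the 12096 genes with a CPM (reads per 1000000) of 1 or more in 6 or more libraries, with Benjamini-Hochberg adjusted p under 0.05 as the threshold. It covered 7 of the 10 genes, and *ocr-1*, *pkd-2* and *lov-1* fell below the filter. The 1 gene called among the 7 compares with 1.66% of all genes tested, of which 1.33% were higher and 0.331% lower in *arcp-1* mutants. The 2 genes without overlap between the genotypes compare with 1.95% of all genes tested. Over those genes the median log2 fold change was −0.02.

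**Figure D1:**
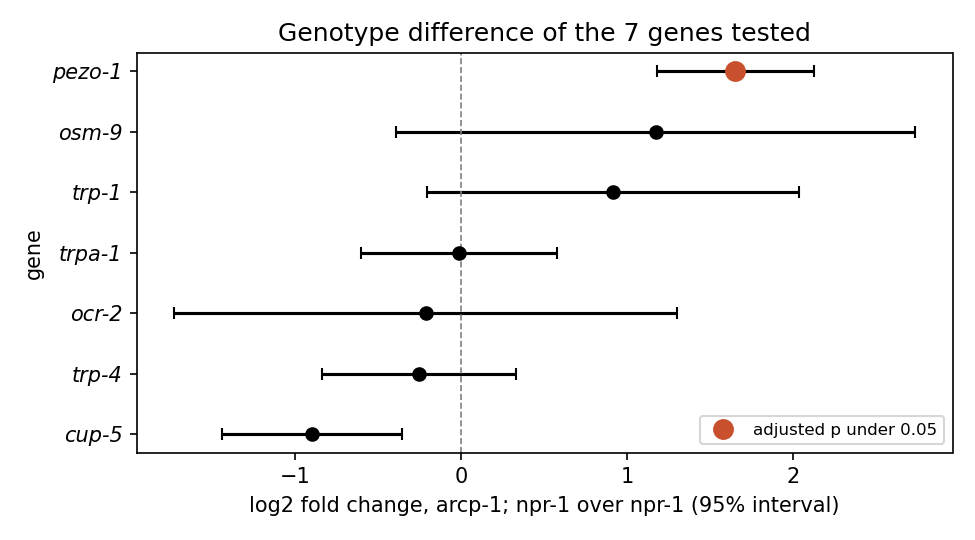
Log2 fold change of the 7 genes that were tested, *arcp-1; npr-1* over *npr-1* (x axis), by gene (y axis). Points are limma estimates from 6 libraries of each genotype and bars are 95% intervals. The interval of *pezo-1* runs from 1.18 to 2.13 and that of *cup-5* from −1.44 to −0.36, and those of the other 5 genes include 0.

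*pezo-1* (WBGene00007505) lies on the minus strand of chromosome IV (IV:9343358-9366506, WS255). It has 12 annotated transcripts, which together cover 8038 bases of exon in 35 blocks, so a count per gene sums over isoforms. No exon of another gene overlaps its exons, and no reads were recovered for the 2 small genes inside its span, C10C5.10 and C10C5.11. A gene without normalized counts was also set to 0 reads, so this need not be a measured 0. In worms, Piezo is known from the pharynx and from ovulation. Pharyngeal muscle markers summed to 60.5 to 299.2 TPM (median 122.8) in *arcp-1* mutants and 63.8 to 361.2 TPM (median 113.9) in controls, pharyngeal gland markers to 3.799 to 86.1 TPM (median 15.5) in *arcp-1* mutants and 16.97 to 2372 TPM (median 30.2) in controls, and spermatheca and sheath markers to 58.9 to 146.6 TPM (median 62.2) in *arcp-1* mutants and 69.9 to 107.7 TPM (median 80.3) in controls.

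In replicates 1 to 6 of the *arcp-1* mutants, *pezo-1* had 238.2, 341.2, 275.2, 441.1, 443.8 and 361.8 normalized counts. In replicates 1 to 6 of the controls it had 72.2, 104.5, 131.7, 105.6, 93.4 and 161.2 normalized counts. The lowest mutant library thus stood above the highest control, and the genotypes did not overlap, as was so in this direction for 1.29% of all genes tested. The means were 350.2 ± 84.1 in *arcp-1* mutants and 111.4 ± 31.1 in controls (SD, n = 6 each). This gave a log2 fold change of 1.65 (SE 0.22, 95% interval 1.18 to 2.13, adjusted p = 0.000508, limma), a 3.14-fold difference with an interval of 2.26 to 4.37. The exact permutation test of the same difference gave p = 0.00216 (two-sided), the smallest that the 924 assignments of 12 libraries allow. By p-value *pezo-1* stood at place 37 of all genes tested.

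**Figure D2:**
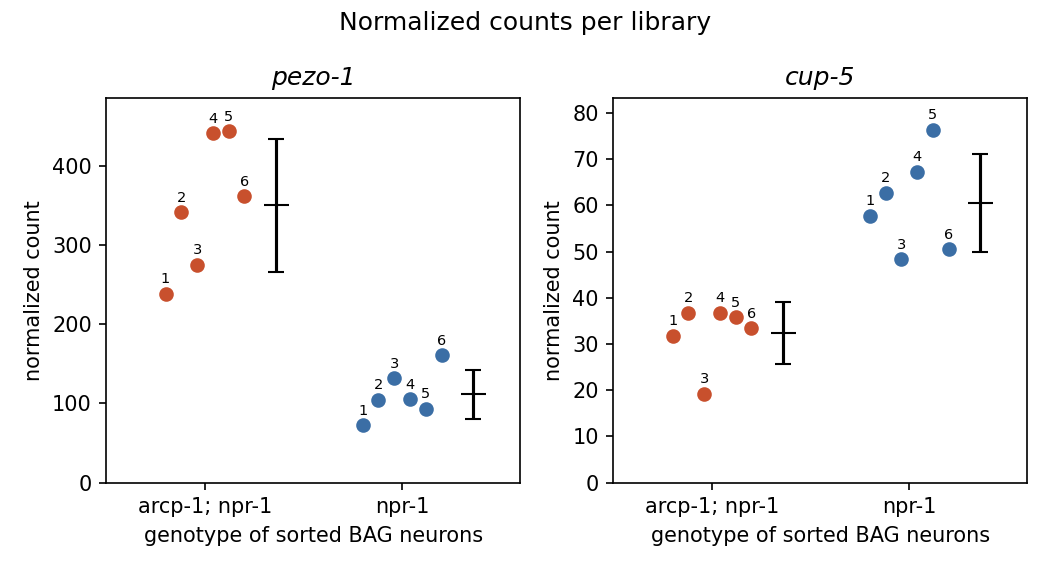
Normalized counts (y axis) of *pezo-1* and *cup-5* in each library of sorted BAG neurons, by genotype (x axis). Points are libraries, labelled with their replicate number, and bars show the mean and SD of 6 libraries. The *pezo-1* values are 238.2 to 443.8 in *arcp-1; npr-1* and 72.2 to 161.2 in *npr-1*, and those of *cup-5* are 19.2 to 36.8 in *arcp-1; npr-1* and 48.3 to 76.4 in *npr-1*.

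The *pezo-1* reads behind these values numbered 43 to 898 per library in *arcp-1* mutants and 20 to 475 in controls, so that counting error was largest in the 4 shallow libraries. Without those libraries the log2 fold change was 1.44 (adjusted p = 0.0252, limma). When libraries with the same replicate number were set side by side, the mutant to control ratio of *pezo-1* ranged from 2.09 to 4.75 with a median of 3.28. It was above 1 in 6 of 6 pairs, as the lack of overlap requires of any pairing.

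The level of *pezo-1* per length gave the same order. It averaged 25.97 ± 6.63 TPM in *arcp-1* mutants and 8.48 ± 2.73 TPM in controls (SD, n = 6 each), which placed it at rank 4136 of all genes in the mutants and 7921 in controls. The 10 genes together summed to 46.3 to 83.9 TPM per library in *arcp-1* mutants and 39.5 to 99.4 TPM in controls. The share of *pezo-1* in this sum was 30.5% to 45.3% in *arcp-1* mutants and 9.93% to 19.03% in controls. It was the highest of the 10 genes in 6 of 6 mutant libraries and in 0 of 6 control libraries. Relative to *trpa-1*, its TPM was 1.35 to 2.03 times as high in *arcp-1* mutants and 0.362 to 0.752 times as high in controls.

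**Figure D3:**
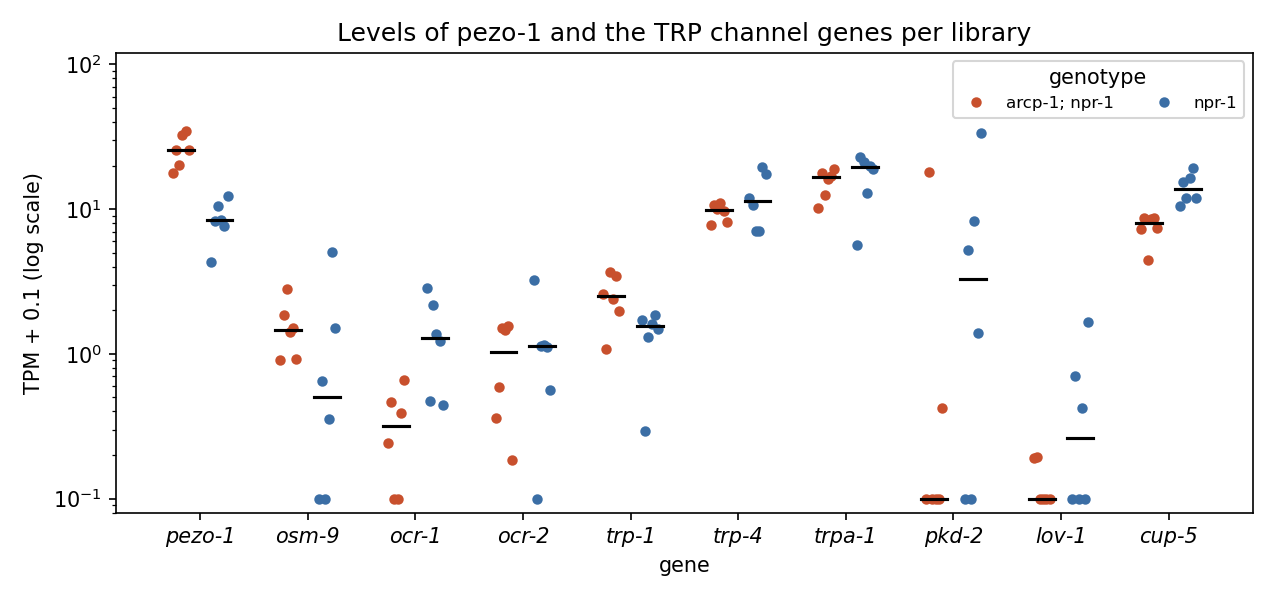
TPM + 0.1 on a log scale (y axis) of the 10 genes (x axis) in every library, *arcp-1; npr-1* left of *npr-1* for each gene. Points are libraries and horizontal lines are medians over 6 libraries. The median of *pezo-1* is 25.6 TPM in *arcp-1; npr-1* and 8.25 TPM in *npr-1*, and points at the lower edge are libraries without a read.

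Because BAG content varied between libraries, *pezo-1* was compared with the BAG marker mean after removal of the genotype means. Over the 12 libraries Pearson's r was 0.66 (permutation p = 0.0272, adjusted over 7 genes p = 0.129) and Spearman's rho was 0.48 (permutation p = 0.137, adjusted p = 0.495). Within *arcp-1* mutants r was 0.69, and within controls it was 0.64. Without the 2 libraries farthest from the median of the BAG marker mean, r was 0.16, so the relation rests on those libraries. For the other 6 genes the adjusted permutation p of r was 0.129 for *trpa-1* (r = 0.60, and −0.26 without the 2 farthest libraries) and 0.284 or above for the rest.

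**Figure D4:**
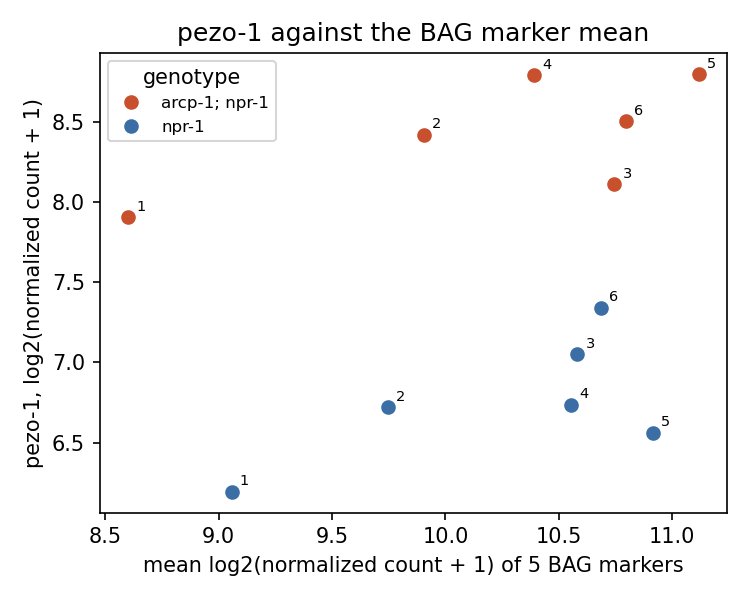
*pezo-1* level as log2(normalized count + 1) (y axis) against the mean log2(normalized count + 1) of 5 BAG markers (x axis), with points for libraries, coloured by genotype and labelled with the replicate number. The BAG marker mean is 8.60 to 11.1 in *arcp-1; npr-1* and 9.06 to 10.9 in *npr-1*, and every *arcp-1; npr-1* point lies above every *npr-1* point.

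None of the nearest tested genes flanking *pezo-1* on chromosome IV was called, which does not show that they were unchanged. Of the 5 nearest tested genes on each side, 0 of 10 passed the test, with log2 fold changes of −1.07 to 1.10 and adjusted p of 0.479 or above (limma). The genes with the most similar pattern over the 12 libraries, after removal of the genotype means and among the 2884 genes that averaged 100 normalized counts or more, were *nlf-1* (r = 0.89), *pgp-4* (r = 0.88), *scm-1* (r = 0.87), *lrk-1* (r = 0.86) and F26D11.12 (r = 0.85). NLF-1 is an endoplasmic reticulum protein needed for sodium leak channels, PGP-4 belongs to the P-glycoprotein transporters, and LRK-1 is the worm LRRK kinase. The lowest values belonged to T23G7.2 (r = −0.87) and *ctg-1* (r = −0.86). None of these 7 genes passed the test of the genotypes, and their log2 fold changes lay between −0.25 and 0.38. Points of this comparison share libraries, depth and BAG content.

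*cup-5* (WBGene00000846, III:7584181-7591570, plus strand, WS255) encodes the worm mucolipin, a TRPML channel of lysosomes that is required for their biogenesis. In replicates 1 to 6 of the *arcp-1* mutants it had 31.8, 36.8, 19.2, 36.8, 35.8 and 33.4 normalized counts. In replicates 1 to 6 of the controls it had 57.8, 62.8, 48.3, 67.3, 76.4 and 50.6 normalized counts. Every mutant library lay below every control, as was so for 0.661% of all genes tested. The means were 32.3 ± 6.72 in *arcp-1* mutants and 60.5 ± 10.59 in controls (SD, n = 6 each), and 7.40 ± 1.61 TPM in *arcp-1* mutants against 14.1 ± 3.33 TPM in controls.

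The log2 fold change of *cup-5* was −0.90 (SE 0.26, 95% interval −1.44 to −0.36), with an adjusted p of 0.111 (limma), above the threshold. The exact permutation test gave p = 0.00216, not adjusted for the number of genes. This is the smallest p possible here and follows from the lack of overlap alone. Adjusted p was 0.0495 with library weights and 0.0145 with DESeq2, both past the threshold, and 0.0843 to 0.367 in the other 9 settings that changed a choice other than leaving out 1 library. In pairs with the same replicate number the mutant to control ratio was 0.397 to 0.662. It was below 1 in 6 of 6, as the lack of overlap requires of any pairing. The value of mutant replicate 3 rests on 3 reads. The 3 coelomocyte markers, from scavenger cells with abundant lysosomes, summed to 0.312 to 73.1 TPM (median 13.3) in *arcp-1* mutants and 0 to 11.4 TPM (median 1.059) in controls, and their part in the *cup-5* values was not tested. Exons of R13A5.11 and R13A5.15 on the opposite strand overlap those of *cup-5* by 12 bases and 1 base.

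Other lysosomal genes did not pass the test in either direction. Of 16 genes listed beside *cup-5*, 15 were found, 12 were tested and 0 were higher or lower (limma). Unadjusted p was under 0.05 for 1 of the 12 (limma), against 1255 of all 12096 genes tested. The median log2 fold change of the 12 lysosomal genes was −0.10. The most abundant of them, *asp-1*, which encodes an aspartyl protease, averaged 145.4 ± 70.2 TPM in *arcp-1* mutants and 211.8 ± 83.0 TPM in controls (SD, n = 6 each, log2 fold change −0.59, adjusted p = 0.583, limma).

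*trp-4* (WBGene00006616, I:13899085-13913854, plus strand) encodes the TRPN channel, a pore subunit of mechanosensory dopaminergic neurons. It had 73.2 to 104.1 normalized counts (median 91.5) in *arcp-1* mutants and 62.0 to 169.8 (median 119.4) in controls. The mutant values were tightly grouped and all lay within the range of the controls, which split into 3 libraries at or below 94.4 and 3 at or above 144.4. Its log2 fold change was −0.25 (95% interval −0.84 to 0.33, adjusted p = 0.821, limma), a fold between 0.56 and 1.26. In TPM, *trp-4* averaged 9.45 ± 1.32 in *arcp-1* mutants and 12.2 ± 5.26 in controls (SD, n = 6 each). The dopamine transporter gene *dat-1* reached at most 3.64 TPM in *arcp-1* mutants and 3.82 TPM in controls, and the tyrosine hydroxylase gene *cat-2* at most 2.11 TPM in *arcp-1* mutants and 4.42 TPM in controls. In every library *trp-4* was above both of these dopaminergic markers. On the same list *bas-1* was higher, at up to 7.38 TPM in *arcp-1* mutants and 6.77 TPM in controls. All 5 dopaminergic markers summed to 6.47 to 16.4 TPM (median 10.2) in *arcp-1* mutants and 0 to 13.2 TPM (median 8.88) in controls. The noncoding genes Y71A12B.29 and Y71A12B.27 on the opposite strand overlap its exons by 181 and 50 bases.

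*trpa-1* (WBGene00007801, IV:11864532-11875738, plus strand) encodes the TRPA channel, known in worms for cold responses and nose touch. It had 61.8 to 120.9 normalized counts (median 98.2) in *arcp-1* mutants and 43.3 to 130.3 (median 111.2) in controls. The genotypes overlapped over most of their range, and replicate 1 was the lowest library of both. The log2 fold change was −0.02 (95% interval −0.61 to 0.58, adjusted p = 0.993, limma), a fold between 0.66 and 1.49. In TPM it averaged 15.3 ± 3.38 in *arcp-1* mutants and 16.8 ± 6.48 in controls (SD, n = 6 each).

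*trp-1* (WBGene00006614, III:8535131-8542748, plus strand) encodes a TRPC channel. Its reads totalled 113 over the *arcp-1* mutant libraries and 63 over the control libraries. It had 5.15 to 19.2 normalized counts (median 12.7) in *arcp-1* mutants and 0.958 to 10.8 (median 7.35) in controls. 4 of 6 mutant libraries lay above every control. For *trp-1* the log2 fold change was 0.92 (95% interval −0.21 to 2.04, adjusted p = 0.620, limma), and the exact permutation test gave p = 0.0476 before any adjustment. The ratio between libraries with the same number was above 1 in 6 of 6 pairs, between 1.22 and 5.37. These ratios rest on few reads. More than 3 *trp-1* reads were found in 4 of 6 mutant and 3 of 6 control libraries. The highest ratio, in replicate 2, came from 7 mutant and 2 control reads.

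The TRPV genes were close to the limit of detection in BAG. OSM-9 and OCR-2 are channel subunits that act together in the cilia of olfactory and nociceptive neurons, and OCR-1 is a further subunit. *osm-9* (WBGene00003889, IV:3551090-3557431, minus strand) had 1 to 13 reads per library in *arcp-1* mutants and 0 to 19 in controls. Its normalized count was 3.82 to 12.8 (median 6.19) in *arcp-1* mutants and 0 to 21.2 (median 1.77) in controls. All 6 mutant libraries lay above the control median, yet the highest value was that of control replicate 5, a shallow library with 5 *osm-9* reads. For *osm-9* the log2 fold change was 1.17 (95% interval −0.39 to 2.74, adjusted p = 0.661, limma). It depended on the pseudocount, at 2.32 with 0.1 and 0.26 with 10, and was 0.60 with DESeq2, without a call in any setting.

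*ocr-2* (WBGene00003839, IV:8213826-8220036, minus strand) had 1 to 11 reads per library in *arcp-1* mutants and 0 to 12 in controls. Its normalized count was 0.403 to 6.40 (median 4.17) in *arcp-1* mutants and 0 to 18.05 (median 4.34) in controls. The genotypes overlapped, and the log2 fold change was −0.21 (95% interval −1.73 to 1.30, adjusted p = 0.954, limma). These intervals allow a fold of 0.30 to 2.47 for *ocr-2* and of 0.76 to 6.68 for *osm-9*, so even large differences were not detectable at this depth.

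*ocr-1* (WBGene00003838, V:10764366-10768454, plus strand) had 12 reads over all *arcp-1* mutant libraries and 45 over all control libraries. Its normalized count was 0 to 2.42 (median 0.863) in *arcp-1* mutants and 1.36 to 14.4 (median 4.58) in controls. 4 of 6 mutant libraries lay below every control. The exact permutation test gave p = 0.0152 before any adjustment, and without the filter on low counts the log2 fold change was −1.63 (adjusted p = 0.537, limma). Replicates 3 and 4 of the mutants had 0 reads, which in these shallow libraries allows up to 19.2 and 18.4 normalized counts (3 reads), more than any control held. Exons of D1054.1 and F28H7.12, both on the opposite strand, overlap those of *ocr-1* by 128 and 98 bases, and since reads were counted without strand they cannot be told apart there.

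Some markers of the neurons in which these TRPV channels are best known were scarce as well, and others were not. The ASH receptor genes *sra-6* and *srb-6* had at most 0.206 TPM in any library, with *srb-6* at 0 in all 12. The 8 markers of AWA, ASH, ADL and ADF neurons summed to 8.38 to 36.96 TPM (median 11.1) in *arcp-1* mutants and 12.9 to 46.8 TPM (median 29.4) in controls. Of these, *unc-42* was at 0 to 23.99 TPM in *arcp-1* mutants and 2.73 to 19.27 TPM in controls (log2 fold change −0.69, adjusted p = 0.817, limma). The AWA marker *odr-7* was at most 0.266 TPM in *arcp-1* mutants and 0.574 to 8.29 TPM in controls, whereas the AWA marker *odr-10* overlapped, at 0 to 10.8 TPM in *arcp-1* mutants and 0 to 31.2 TPM in controls. The ADF marker *tph-1* had a log2 fold change of 1.09 (adjusted p = 0.672, limma), in the other direction. None of the 3 tested genes of the list passed, *odr-7* being too low to be tested, and the part of these cells in the *ocr-1* values was not tested.

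*pkd-2* and *lov-1* encode polycystins that act together in the cilia of male-specific sensory neurons. *pkd-2* (WBGene00004035, IV:15227883-15234973, minus strand) had 0, 87, 0, 0, 0 and 3 reads in replicates 1 to 6 of the *arcp-1* mutants. It had 0, 36, 0, 74, 1 and 346 reads in replicates 1 to 6 of the controls. Mutant replicate 2 and control replicates 2, 4 and 6 held 99.3% of its 547 reads, and control replicate 6 alone held 63.3%. Its normalized count was thus 0 to 64.0 in *arcp-1* mutants and 0 to 117.4 in controls, with 4 of 6 mutant libraries at 0.

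*lov-1* (WBGene00003058, II:10109279-10121825, minus strand) had 5, 2, 0, 0, 0 and 0 reads in replicates 1 to 6 of the *arcp-1* mutants. It had 0, 19, 0, 13, 0 and 72 reads in replicates 1 to 6 of the controls. Control replicate 6 was again the highest, with 64.9% of the 111 reads. Without the filter on low counts the log2 fold change was −1.86 for *pkd-2* (adjusted p = 0.751, limma) and −1.33 for *lov-1* (adjusted p = 0.731, limma), and the exact permutation p was 0.242 for *pkd-2* and 0.227 for *lov-1*. Without strand, reads from overlapping exons cannot be told apart: on the opposite strand the coding gene ZK945.8 overlaps *lov-1* by 111 bases and 3 noncoding genes overlap it by up to 149 bases each, and a noncoding gene overlaps *pkd-2* by 147 bases.

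Most *pkd-2* reads lay in libraries with high levels of *cwp-1* and *cwp-2*, which are co-expressed with the polycystins in male CEM neurons. *cwp-1* had 393.6 TPM in mutant replicate 2, and 951.7, 159.5, 75.2 and 65.4 TPM in control replicates 6, 4, 5 and 2. In the other 7 libraries it had at most 2.08 TPM. *cwp-2* was at 269.5 TPM in mutant replicate 2 and 39.0 to 655.8 TPM in the same 4 controls, and at most 10.7 TPM in the other libraries. The same 5 libraries were the highest for *pkd-2* TPM and for *cwp-1* TPM, and in them *pkd-2* was at 1.71% to 7.81% of the *cwp-1* level. Mutant replicate 6 was an exception, with 3 *pkd-2* reads and *cwp-1* at 0 TPM. The other 4 markers on the same list did not divide the libraries in this way. *klp-6* was at 0.104 to 0.947 TPM in the 5 libraries and highest in control replicate 1 (2.89 TPM), which had no *pkd-2* read. *cil-7* and *cwp-4* were highest in control replicate 6, at 61.8 and 78.1 TPM, but in mutant replicate 3, also without a *pkd-2* read, *cil-7* was at 29.6 TPM, *cwp-4* at 20.1 TPM and *unc-86* at its highest, 21.5 TPM. CEM neurons die in hermaphrodite embryos, and the sorted animals were hermaphrodites. The 6 markers of male CEM and IL2 neurons summed to 4.12 to 726.4 TPM (median 53.8) in *arcp-1* mutants and 10.1 to 1756 TPM (median 142.2) in controls, none of the 5 tested passed the test of the genotypes (limma), and what cells these reads came from was not tested.

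**Figure D5:**
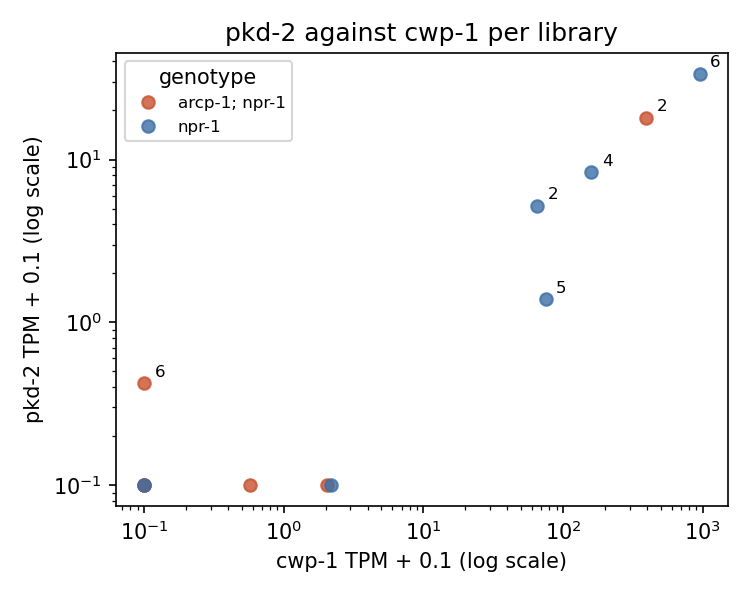
*pkd-2* level (y axis) against *cwp-1* level (x axis), both as TPM + 0.1 on log scales, with points for libraries coloured by genotype and replicate numbers beside libraries with a *pkd-2* read. The 5 libraries at the right have 65.4 to 951.7 TPM of *cwp-1*, and points at the lower edge had no *pkd-2* read, with some libraries at the same place.

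The order of the 10 genes by mean TPM differed between the genotypes: *pezo-1* was first in *arcp-1* mutants and at place 4 in controls, *trp-4* stood above *cup-5* in *arcp-1* mutants and below it in controls, and *ocr-1* was at place 9 in *arcp-1* mutants and 6 in controls. In *arcp-1* mutants *pezo-1* was followed by *trpa-1* (15.3 TPM), *trp-4* (9.45 TPM), *cup-5* (7.40 TPM), *pkd-2* (3.06 TPM), *trp-1* (2.44 TPM), *osm-9* (1.47 TPM), *ocr-2* (0.839 TPM), *ocr-1* (0.226 TPM) and *lov-1* (0.0307 TPM). In controls the order was *trpa-1* (16.8 TPM), *cup-5* (14.1 TPM), *trp-4* (12.2 TPM), *pezo-1* (8.48 TPM), *pkd-2* (8.04 TPM), *ocr-1* (1.32 TPM), *trp-1* (1.28 TPM), *osm-9* (1.20 TPM), *ocr-2* (1.12 TPM) and *lov-1* (0.416 TPM). The ranges over 6 libraries overlapped for every pair of neighbours in both orders. Within single libraries, *pezo-1* exceeded *trpa-1* in 6 of 6 mutants, whereas in controls *trpa-1* exceeded *cup-5* in 4 of 6 and *cup-5* exceeded *trp-4* in 3 of 6. The mean of *pkd-2* is set by single libraries, and its median was 0 TPM in *arcp-1* mutants and 3.20 TPM in controls.

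No other TRP gene passed the test. Of 15 listed, 12 were found, 5 were tested and 0 were higher or lower (limma). Unadjusted p was under 0.05 for 1 of the 5 (limma), against 1255 of all 12096 genes tested. The median log2 fold change of these 5 TRP genes was 0.08. The TRPM gene *gon-2* was the most abundant, at 12.5 ± 2.19 TPM in *arcp-1* mutants and 12.2 ± 3.06 TPM in controls (SD, n = 6 each, log2 fold change 0.08, adjusted p = 0.943, limma). Among partners of TRPV signalling, 12 of 14 were tested and 0 passed (limma). Unadjusted p was under 0.05 for 1 of the 12 (limma), against 1255 of all 12096 genes tested. The median log2 fold change of the 12 TRPV partners was 0.05. The calcineurin gene *tax-6*, the most abundant of these, had 276.9 ± 87.5 TPM in *arcp-1* mutants and 304.0 ± 64.6 TPM in controls (SD, n = 6 each, log2 fold change −0.14, adjusted p = 0.865, limma).

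Among genes of other mechanosensory channels, 1 stomatin gene and 1 channel gene were higher in *arcp-1* mutants, as were 1.33% of all genes tested. *sto-1*, on chromosome X, encodes a stomatin-like membrane protein related to the touch channel partner MEC-2. It had 56.0 ± 19.3 TPM in *arcp-1* mutants and 9.13 ± 5.71 TPM in controls (SD, n = 6 each). The ranges, 25.7 to 83.2 TPM in *arcp-1* mutants and 2.27 to 17.3 TPM in controls, did not overlap. In normalized counts, not TPM, 1.29% of all genes tested had no overlap in this direction. For *sto-1* the log2 fold change was 2.75 (SE 0.46, adjusted p = 0.00369, limma). It passed the test in 11 of 11 other settings and in 12 of 12 with 1 library left out, while the filter on a mean of 100 normalized counts left it out. Of 8 tested touch channel partners *sto-1* alone passed. Unadjusted p was under 0.05 for 1 of the 8 (limma), against 1255 of all 12096 genes tested. The median log2 fold change of the 8 touch channel partners was −0.30. The α-tubulin gene *mec-12* was the most abundant of them, at 2147 ± 877 TPM in *arcp-1* mutants and 2456 ± 514 TPM in controls (SD, n = 6 each, log2 fold change −0.27, adjusted p = 0.837, limma).

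*del-5*, also on chromosome X, encodes a DEG/ENaC channel subunit. It had 47.3 ± 28.7 TPM in *arcp-1* mutants and 7.35 ± 4.85 TPM in controls (SD, n = 6 each), and the ranges of 12.2 to 96.1 TPM in *arcp-1* mutants and 0 to 13.5 TPM in controls overlapped. Its log2 fold change was 3.06 (SE 0.73, adjusted p = 0.0452, limma). It was no longer called when any of 9 single libraries was left out, with adjusted p of up to 0.119 (without mutant replicate 5), nor in 4 of 11 other settings, with adjusted p of up to 0.191. Its value moved with the settings too, to 2.20 with a pseudocount of 10, 2.32 without control replicate 1 and 2.39 without the 4 shallow libraries. Of 30 DEG/ENaC genes, 14 were tested, *del-5* alone passed, and the median log2 fold change was 0.04. An unadjusted p under 0.05 was found for 5 of the 14, against 1255 of all 12096 genes tested: *del-5*, *del-2* (log2 fold change 1.09, adjusted p = 0.103, limma), *del-1* (1.18, adjusted p = 0.454), *unc-8* (−2.35, adjusted p = 0.213) and *del-10* (−1.54, adjusted p = 0.349), of which the last 4 were named after their values were seen.

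Of the TMC channel genes and their partners, 4 of 5 were tested and 0 passed (limma). Unadjusted p was under 0.05 for 0 of the 4 (limma), against 1255 of all 12096 genes tested. The median log2 fold change of the 4 TMC genes and partners was −0.59. The most abundant was *unc-44*, the ankyrin gene, at 108.7 ± 31.03 TPM in *arcp-1* mutants and 146.4 ± 36.8 TPM in controls (SD, n = 6 each, log2 fold change −0.42, adjusted p = 0.652, limma). Of the polycystin partners, 13 of 16 were tested and *stam-1* alone passed, higher in *arcp-1* mutants, as were 1.33% of all genes tested. Unadjusted p was under 0.05 for 3 of the 13 partners, *stam-1* included (limma), against 1255 of all 12096 genes tested. The other partners under 0.05, named after their values were seen, were *kin-3* (log2 fold change 0.72, adjusted p = 0.143, limma) and *cwp-5* (−2.97, adjusted p = 0.370). STAM-1 is an endosomal sorting adaptor that in male worms acts on the ciliary level of PKD-2. It had 84.7 ± 14.4 TPM in *arcp-1* mutants and 50.0 ± 13.8 TPM in controls (SD, n = 6 each). The ranges, 70.7 to 108.1 TPM in *arcp-1* mutants and 28.9 to 69.4 TPM in controls, did not overlap. In normalized counts, 1.29% of all genes tested had no overlap in this direction. The log2 fold change was 0.81 (SE 0.19, adjusted p = 0.0388, limma), and it was no longer called when any of 10 single libraries was left out, with adjusted p of up to 0.111 (without mutant replicate 6), nor in 6 of 12 other settings, with adjusted p of up to 0.137. The ATP synthase gene *atp-2* was the most abundant of these, at 560.2 ± 92.4 TPM in *arcp-1* mutants and 635.4 ± 46.0 TPM in controls (SD, n = 6 each, log2 fold change −0.18, adjusted p = 0.774, limma), and the median of the list was −0.08.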

How the data were processed

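The libraries were made with Smart-seq2 from polyA RNA, 6 for each genotype. Per the methods, ribosomal reads were removed with Bowtie2, and after adapter trimming (Trim Galore) the authors mapped reads with STAR to WS255, kept a mapping quality of 20 or more, and counted per gene without regard to strand. Normalized counts, the deposited signal, are the authors' reads of a library over its DESeq2 size factor. TPM was also deposited, as the authors calculated it over 46766 genes. The deposited comparison table further holds the authors' mean of each genotype, fold changes, p-values and q-values, of which none was used. PCR copies were not marked by molecular identifiers, so counting limits cover counting error only.

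All normalized counts above 0 were whole multiples of the value of a single read (100% of values, within 1e-06 of a whole number), so whole reads were recovered. The count tests on these reads called 198 genes with edgeR 4.0.16 and 404 with DESeq2 1.42.0. The main test was limma 3.58.1 in R 4.3.3 (mean-variance trend, log2 scale, pseudocount of 1), for genes whose CPM reached 1 in 6 libraries, and p-values were adjusted over all 12096 genes tested. Fold changes are on this scale, and those of low genes depend on the pseudocount. It called 201 genes, and 1255 had an unadjusted p under 0.05. Single values were also compared by two-sided exact permutation tests over 924 assignments. Models were tested on simulated data. The lowest chi-square per gene between libraries of a genotype was 4.16, so none was a copy of another. Same-numbered libraries of the genotypes deviated together (r = 0.20 to 0.43 in all 6 pairs). For mutant replicates 3 and 5, however, a control of another number had a higher r (0.27 against 0.20, and 0.36 against 0.31). The numbers, taken from the sample titles, were treated as pairs only in an alternative with a replicate block.

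The alternatives changed the pseudocount (0.1 or 10), the filter (none, or an average of 100 normalized counts), the scale (TPM or quantile normalization), the model (without the trend, library weights, edgeR, DESeq2, the replicate block) and the libraries (each left out). The text names all 10 genes, the 5 genes most like and the 2 least like *pezo-1*, and, from 7 lists (other TRP genes, DEG/ENaC, TMC, touch channel, TRPV and polycystin partners, lysosome), every gene called and the most abundant of each list. The genes, lists and tests were chosen with earlier results of these data known. Positions are those of the deposited WS255 loci, of which 31916 of 46553 were identical in the Ensembl annotation used for exons.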

Additional observations from a re-analysis of the deposited data

Results flagged for a closer look

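In 3 of the 20 groups formed by the 10 genes and 2 genotypes, 1 library lay far from the other 5, with a gap to its nearest neighbour that took up more of the range of the group than the 95% critical value of Dixon's test for 6 libraries allows. Gap and range were taken on log2(normalized count + 1), not on the normalized counts given below. Chance alone flags about 1 in 20 such groups. For *cup-5* in *arcp-1* mutants it was replicate 3, the lowest at 19.2 normalized counts, or 3 reads, with a gap of 0.773 of the range. For *pkd-2* in *arcp-1* mutants it was replicate 2, the highest at 64.0 normalized counts, with a gap of 0.810 of the range. For *trp-1* in controls it was replicate 2, the lowest at 0.958 normalized counts, or 2 reads, with a gap of 0.712 of the range.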

How the results depend on the processing

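*pezo-1* was called in all 24 alternatives, with log2 fold changes of 1.44 to 1.66 when a setting was changed and 1.54 to 1.77 when 1 library was left out. The number of genes called over the table, 201, became 99 under the filter on a mean of 100 normalized counts, 484 with library weights and 404 with DESeq2, and 124 to 329 when 1 library was left out. Among the 10 genes, 2 were called with library weights and 2 with DESeq2, *cup-5* being the added one. Without the 4 libraries below 1000000 reads, a choice made after the data had been seen, 110 genes were called, *pezo-1* among them. With the replicate number as a block (replicate block), 291 genes were called, the log2 fold change of *pezo-1* was 1.65 (adjusted p = 0.000729, limma), and no other named gene changed its call. The sign of the log2 fold change turned for *ocr-2* with a pseudocount of 0.1 (0.018) and quantile normalization (0.021), for *trpa-1* (0.051) and *mec-12* (0.065) with library weights, and for *unc-44* without the 4 libraries (0.0095). Leaving out 1 library gave −0.65 to 0.20 for *ocr-2*, −0.23 to 0.10 for *trpa-1* and −0.074 to 0.16 for *gon-2*. The Pearson r with the BAG marker mean turned within controls for *ocr-2* (−0.27), *trp-4* (−0.090) and *cup-5* (0.12), and without the 2 farthest libraries for *trpa-1* (−0.26). The causes were not tested. Depth limits *osm-9*, *ocr-1*, *ocr-2*, *trp-1*, *pkd-2* and *lov-1*, whose values rest on few reads. *ocr-1*, *pkd-2* and *lov-1* have a fold change only without the filter on low counts.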
